A study of Mus musculus with 2 samples.

Results

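A set of 10 genes for precursors of neuropeptides and peptide hormones was followed in cells sorted as neural progenitors from the embryonic mouse cortex. Cells with a knockdown of TRPM2, a cation channel that opens on warming, were compared with control cells. The genes are 10 of the 16103 in the deposited table: Gnrh1, Cort, Avp, Tac1, Tac2, Sst, Npy, Cck, Penk and Pnoc. They were taken by symbol and had been chosen by their known role and by the ratio of their reads between the libraries, which was already known for several of them. The differences below are therefore a description and carry no test. All 10 were found in the table, 9 of them at a mean RPKM (reads per length of gene and per size of library) of at least 1.

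The study compared 1 library of TRPM2-KD cells with 1 library of Control cells. The labels put both in a warm condition and in ICR mouse embryos, an outbred stock. A plasmid with a TRPM2 knockdown construct, which the column header calls TRPM2-sh1, or a control plasmid was put into the cortex by in utero electroporation at embryonic day 13. GFP-positive cells were sorted at embryonic day 15. The sources used here do not give the temperature, the number of embryos behind each library or any other construct. An effect of TRPM2 knockdown therefore cannot be told apart from that of this construct or of this pair of libraries. The counted reads came to 20791236 in TRPM2-KD and 26209192 in Control. Trpm2 itself had 155 reads in TRPM2-KD and 241 in Control, at an RPKM ratio of 0.811 (95% counting interval 0.658 to 0.996). Its level was low, at 0.604 RPKM in TRPM2-KD and 0.745 RPKM in Control. The authors' deposited log2 fold change for it is -0.302. How far TRPM2 was lowered is therefore uncertain. Counting intervals here are exact, cover counting error only, and say nothing of the spread between embryos.

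The sort was for neural progenitors, and the libraries held progenitor and neuronal markers alike. Sox2, a progenitor factor, was picked here as a defining marker, as were Eomes and Tubb3. Sox2 was at 65.3 RPKM in TRPM2-KD and 64.4 in Control. Eomes, a factor of intermediate progenitors, was at 52.9 RPKM in TRPM2-KD and 51.5 in Control, and Tubb3, a tubulin of young neurons, was at 680 RPKM in TRPM2-KD and 743 in Control. In such bulk samples, fewer cells of a type and less RNA per cell cannot be told apart.

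A neuropeptide gene encodes a long precursor with a signal peptide, from which convertases cut short active peptides inside dense core granules. The peptides are released by neurons and act on G-protein-coupled receptors, at the synapse or at a distance. In the forebrain, somatostatin, neuropeptide Y and cholecystokinin are best known from GABA-releasing interneurons, which are born in the ventral forebrain and migrate into the cortex. Vasopressin is a hormone of the hypothalamus, and the neurons that make gonadotropin-releasing hormone are born in the nose and migrate into the forebrain.

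Several of the genes are relatives of each other, and their coding sequences carry a common stretch where the active peptide is encoded. The best ungapped match between each pair of relatives is shown here to make plain how close they are, and whether reads of one could be counted for the other. Sequences are from the GENCODE M21 coding sequences, written 5′ to 3′, with the bases shared by both genes of a pair in capitals.
Sst: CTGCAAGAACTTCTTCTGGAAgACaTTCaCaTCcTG
Cort: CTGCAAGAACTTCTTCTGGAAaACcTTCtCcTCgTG
Tac1: GAtTcCTTTGTtGGACTaATGGGCAAaAG
Tac2: GAcTtCTTTGTgGGACTtATGGGCAAgAG
Penk: AGCTGCAGAAgcGcTacGGGGGCTTCA
Pnoc: AGCTGCAGAAaaGgTttGGGGGCTTCA
Sst and Cort matched at 31 of 36 bases, from base 312 to 347 of the 348 coding bases of Sst and from base 288 to 323 of the 327 of Cort. Their longest identical run was 21 bases. Tac1 and Tac2 matched at 24 of 29 bases, with a longest identical run of 9 anywhere in the coding sequences. Penk and Pnoc matched at 22 of 27 bases, and their longest identical run was 11. The sources used here do not state how long the reads were, and whether any read fell wholly within such a run was not tested.

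The stretches before the transcription starts of Cort, Avp and Tac2, which lie past 2-fold, and of Sst and Tac1, relatives of Cort and Tac2, are shown next. Gnrh1, Penk and Pnoc had no entry in the promoter sequences used. They are the 120 bases before the RefSeq start on the GRCm38.p6 build, written 5′ to 3′ on the strand of the gene. The build named in the submitters' processing notes is the older mm9, so these positions belong to the reference alone. Capitals mark matches to a cAMP response element (CRE, TGACGTCA), to its shorter variant TGCGTCA, to the E-box CACGTG or to the TATA-like run ATAAATA, each searched on both strands.
Sst: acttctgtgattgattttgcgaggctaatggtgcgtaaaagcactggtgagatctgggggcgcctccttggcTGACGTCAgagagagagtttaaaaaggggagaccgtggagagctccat
Cort: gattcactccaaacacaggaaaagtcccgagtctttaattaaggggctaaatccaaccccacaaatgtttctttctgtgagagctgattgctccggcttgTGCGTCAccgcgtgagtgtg
Avp: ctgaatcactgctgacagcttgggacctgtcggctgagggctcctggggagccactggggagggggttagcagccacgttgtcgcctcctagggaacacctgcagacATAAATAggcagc
Tac1: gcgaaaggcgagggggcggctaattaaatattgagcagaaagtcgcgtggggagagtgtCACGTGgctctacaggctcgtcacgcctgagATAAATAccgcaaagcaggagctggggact
Tac2: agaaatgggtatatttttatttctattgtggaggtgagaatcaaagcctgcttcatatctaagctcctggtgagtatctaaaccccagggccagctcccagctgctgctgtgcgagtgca
In the order printed, the windows are chr16:23890845-23890964 on the minus strand (Sst), chr4:149126764-149126883 on the minus strand (Cort), chr2:130582589-130582708 on the minus strand (Avp), chr6:7554941-7555060 on the plus strand (Tac1) and chr10:127724358-127724477 on the plus strand (Tac2). Sst carried the full element TGACGTCA at 48 to 41 bases before its start, as is known from the textbook account of the somatostatin promoter as a cAMP target. Cort carried the variant TGCGTCA at 20 to 14 bases before its start. Cck, not printed, carried the same variant at 49 to 43 bases, and Tac1 carried it at 199 to 193 bases, outside the printed window. The TATA-like run was at 13 to 7 bases in Avp and at 30 to 24 bases in Tac1, and the E-box was at 61 to 56 bases in Tac1. Outside the printed sequences, the E-box was also at 139 to 134 bases in Avp and at 66 to 61 bases in Cck. No searched motif was in the 250 bases before Tac2 or Npy, which says only that these letters were not in this window.

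Of all 32851 promoter windows of 250 bases, 1.55% held the full element and 1.75% the variant. The E-box was in 6.02%, the TATA-like run in 5.17%, TATAAA in 12.4% and the Egr motif GCGNGGGCG in 4.7%. Neither TATAAA nor the Egr motif was in any of the 7 windows found for these genes. The genes with a CRE or its variant had RPKM ratios from 0.369 (Cort) to 0.862 (Sst). Of those without either, Avp was at 0.403, Npy at 0.842 and Tac2 at 3.09. A match is a description of the letters and was not tested as a site.

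**Figure D1:**
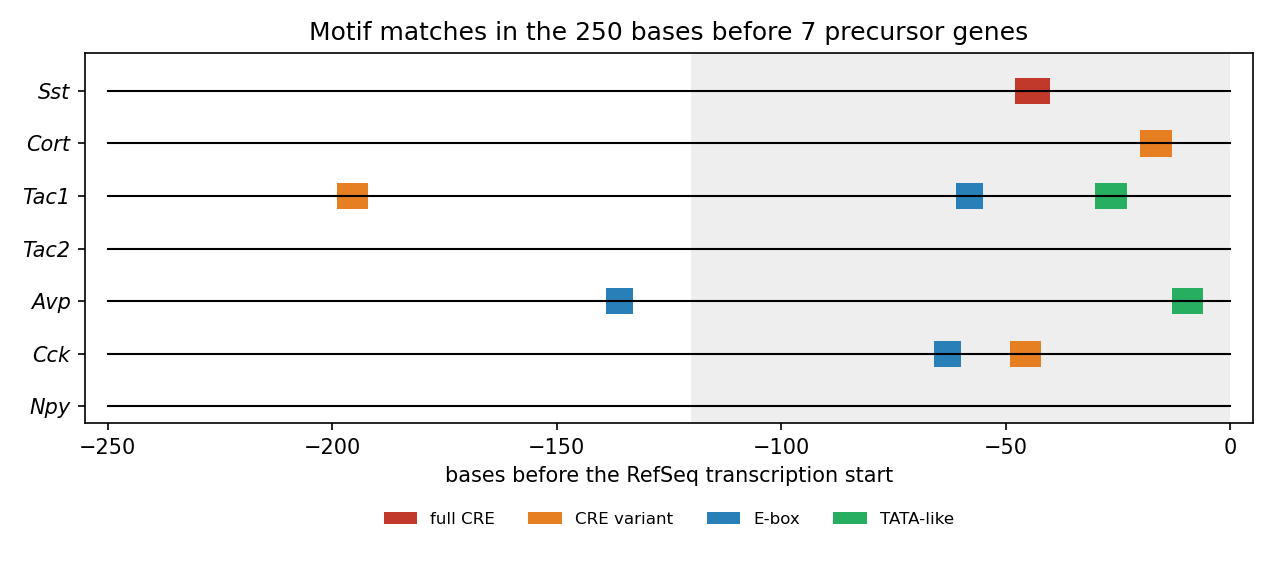
Motif matches on both strands (coloured blocks) in the 250 bases before the RefSeq transcription start of 7 precursor genes, by distance from the start in bases; the grey area is the last 120 bases. The full CRE is in Sst alone, its variant is in Cort, Tac1 and Cck, and none of the motifs is in Tac2 or Npy.

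Levels ranged widely among the genes, and a pair of interneuron peptides made up most of the signal. Sst had 43.6 RPKM in TRPM2-KD and 50.6 RPKM in Control. Npy had 31.2 RPKM in TRPM2-KD and 37.1 RPKM in Control. Together they held 78.6% of the summed RPKM of the 10 genes in TRPM2-KD and 72.2% in Control. Sst was at rank 1243 of 16103 genes by RPKM in TRPM2-KD and at rank 1073 in Control. Npy was at rank 1920 in TRPM2-KD and at rank 1601 in Control. The other genes were at 5.33 RPKM or less in TRPM2-KD and at 8.12 RPKM or less in Control. Only 2 of the 10 lay above the median gene (6.82 RPKM) in TRPM2-KD, while 4 did so in Control (6.77 RPKM). The summed level was 95.2 RPKM in TRPM2-KD and 121.5 RPKM in Control.

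The order of the levels below the top pair differed between the libraries. In TRPM2-KD it ran from Cck through Tac2, Avp, Pnoc, Cort, Penk and Gnrh1 to Tac1, and from Cck to Tac1 no neighbours were apart by their counting intervals. In Control it ran from Cck through Avp, Cort, Gnrh1, Pnoc, Penk and Tac2 to Tac1, and of these neighbours Pnoc and Penk alone were apart. Sst and Npy were apart from each other, and Npy from Cck, in both libraries. Tac2 stood at place 4 in TRPM2-KD and at place 9 in Control. Gnrh1 stood at place 9 in TRPM2-KD and at place 6 in Control.

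**Figure D2:**
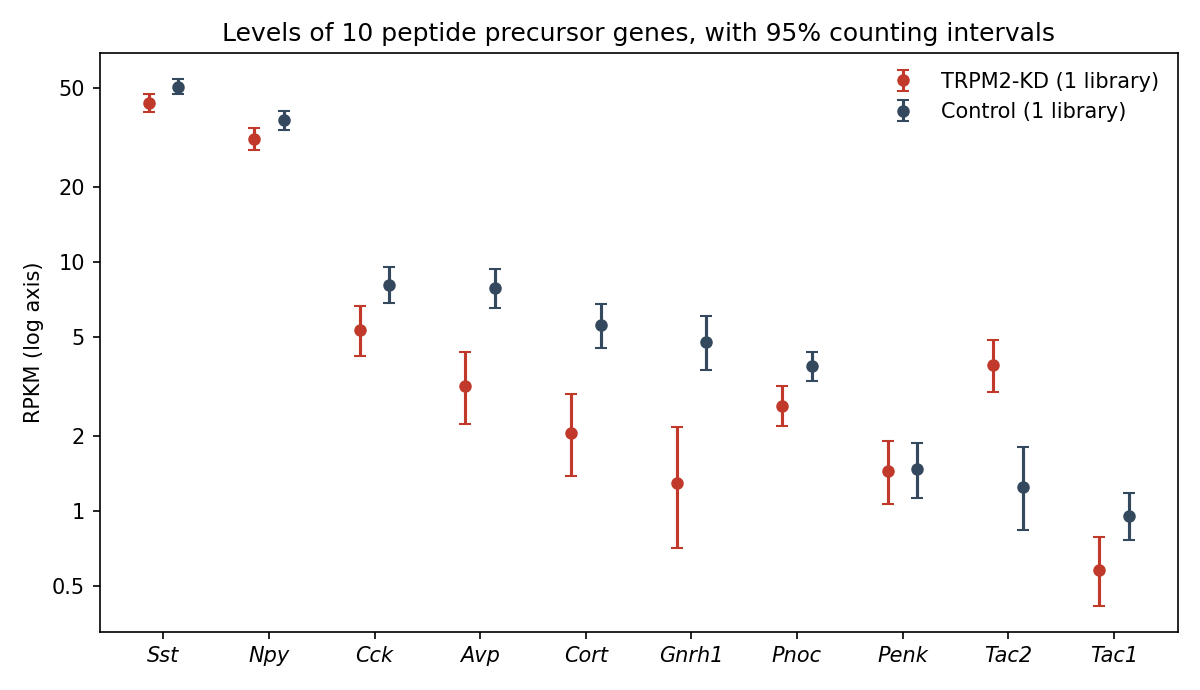
RPKM on a log axis of the 10 genes in TRPM2-KD (red, left) and Control (blue, right), 1 library each, with bars for the exact Poisson 95% interval of the reads; genes are ordered by their Control level. Sst (43.6 RPKM in TRPM2-KD, 50.6 in Control) and Npy (31.2 in TRPM2-KD, 37.1 in Control) stand above the rest, and Tac2 is the gene whose TRPM2-KD point lies clearly above its Control point.

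Of the 10 genes, 9 were lower in TRPM2-KD and 1, Tac2, was higher. The counting interval of the ratio lay below 1 for 8 genes, above 1 for 1 gene, and spanned 1 for Penk. Over all 16103 genes, 28.1% had an interval below 1 and 28.3% one above 1, and since the genes were chosen with these values in view nothing is read from the share. On log2(RPKM + 1), a scale that shrinks the difference of thinly expressed genes, 3 of the 9 genes that reach a mean RPKM of 1 were at least 2-fold lower and 1 at least 2-fold higher. Among all 13988 genes past that filter, 0.686% were at least 2-fold lower and 0.915% at least 2-fold higher. Those 9 genes had a median log2 ratio of -0.40, beside -0.004 over the 13988.

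Gnrh1 (ENSMUSG00000015812.7), the precursor of the hormone that drives the pituitary gonadotropins, had the lowest ratio. It had 14 reads (1.29 RPKM) in TRPM2-KD and 65 reads (4.75 RPKM) in Control, at a ratio of 0.272 (0.141 to 0.489). Every gene of the table reaches a CPM (reads scaled by library size alone) of at least 1.01 in a library, and Gnrh1 does so in Control alone, with a CPM of 0.673 in TRPM2-KD against 2.48 in Control. A gene so listed had to differ, which was not so for the other 9 genes.

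Avp (ENSMUSG00000037727.6) encodes vasopressin, which regulates water balance, together with its carrier neurophysin. It had 38 reads (3.16 RPKM) in TRPM2-KD and 119 reads (7.86 RPKM) in Control, and its ratio was 0.403 (0.272 to 0.584). The level intervals of the libraries were apart, from 2.24 to 4.34 RPKM in TRPM2-KD and from 6.51 to 9.41 RPKM in Control.

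Somatostatin and cortistatin, which act on the same receptors, differed in size of ratio. Cort (ENSMUSG00000028971.4), the cortistatin precursor, had 29 reads (2.06 RPKM) in TRPM2-KD and 99 reads (5.57 RPKM) in Control. Its ratio was 0.369 (0.235 to 0.563). Sst (ENSMUSG00000004366.3), a marker of a major interneuron class, had 544 reads in TRPM2-KD and 796 in Control, and a ratio of 0.862 (0.771 to 0.962). The counting intervals of the 2 ratios did not overlap. Sst was 21.2 times as high as Cort in RPKM in TRPM2-KD and 9.09 times in Control.

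The other interneuron peptides, Npy and Cck, had ratios nearer 1 than that of Cort, though for Cck the counting intervals overlapped. Npy (ENSMUSG00000029819.6), a peptide that stimulates feeding in the adult, had 368 reads in TRPM2-KD and 551 in Control, at a ratio of 0.842 (0.736 to 0.962). Cck (ENSMUSG00000032532.6), the cholecystokinin precursor, had 76 reads in TRPM2-KD and 146 in Control. That is 5.33 RPKM in TRPM2-KD against 8.12 RPKM in Control, at a ratio of 0.656 (0.491 to 0.872). The interval of Cck overlapped those of Npy and Sst, so the ratios of these 3 genes were not distinguishable at this depth. It also overlapped that of Cort (0.235 to 0.563), which the interval of Npy did not.

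The tachykinin genes went opposite ways. Tac2 (ENSMUSG00000025400.4) encodes neurokinin B and had 71 reads in TRPM2-KD and 29 in Control. Its level was 3.86 RPKM (3.02 to 4.87) in TRPM2-KD and 1.25 RPKM (0.838 to 1.80) in Control, at a ratio of 3.09 (1.98 to 4.93). Tac1 (ENSMUSG00000061762.6) encodes substance P and neurokinin A and had 41 reads (0.579 RPKM) in TRPM2-KD and 85 reads (0.953 RPKM) in Control. Its ratio was 0.608 (0.408 to 0.893), on the other side of 1 from that of Tac2. Tac1 was the 1 gene of the set below a mean RPKM of 1.

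Of the opioid family genes, Pnoc was lower with an interval below 1 and Penk had one that spanned 1. Penk (ENSMUSG00000045573.9), the enkephalin precursor, had 49 reads (1.44 RPKM) in TRPM2-KD and 63 reads (1.47 RPKM) in Control. Its ratio of 0.980 had an interval from 0.661 to 1.45, and a difference was not detectable at this depth. In GENCODE M21 Penk overlaps A830012C17Rik on the other strand. The sources used here do not say whether reads were counted by strand, so its count is uncertain. The other 9 genes overlap no annotated gene. Pnoc (ENSMUSG00000045731.5), the precursor of nociceptin, had 119 reads (2.65 RPKM) in TRPM2-KD and 216 reads (3.82 RPKM) in Control. Its ratio of 0.694 (0.551 to 0.873) had an interval that overlapped that of Penk.

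**Figure D3:**
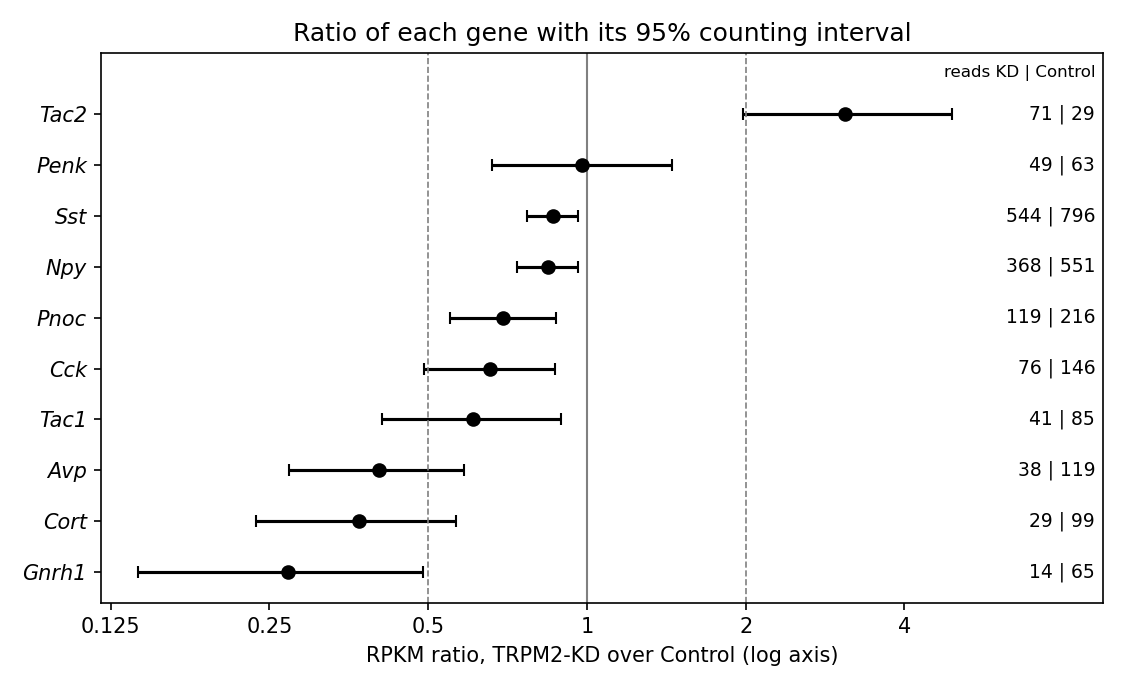
RPKM ratio of TRPM2-KD over Control on a log axis for each of the 10 genes (points) with exact 95% counting intervals (bars); the solid line is a ratio of 1, the dashed lines 0.5 and 2, and the numbers are the reads in TRPM2-KD and Control. Gnrh1 (0.272), Cort (0.369) and Avp (0.403) lie below 0.5, Tac2 (3.09) lies above 2, and the interval of Penk spans 1.

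The 4 genes with the furthest ratios were short and had few reads. Gnrh1, Cort, Avp and Tac2 had between 79 and 157 reads over both libraries, and the length implied by their RPKM was 522 to 884 bases. Of the 118 genes of the table within those ranges of reads and length, these 4 included, 8.47% were at least 2-fold lower and 11.0% at least 2-fold higher by plain ratio. Over all 16103 genes these shares were 3.91% and 4.56%. Sst and Npy, with 1340 and 919 reads and lengths of 600 and 567 bases, were as short and lay closer to 1. The part of length and read number in these ratios was not tested.

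**Figure D4:**
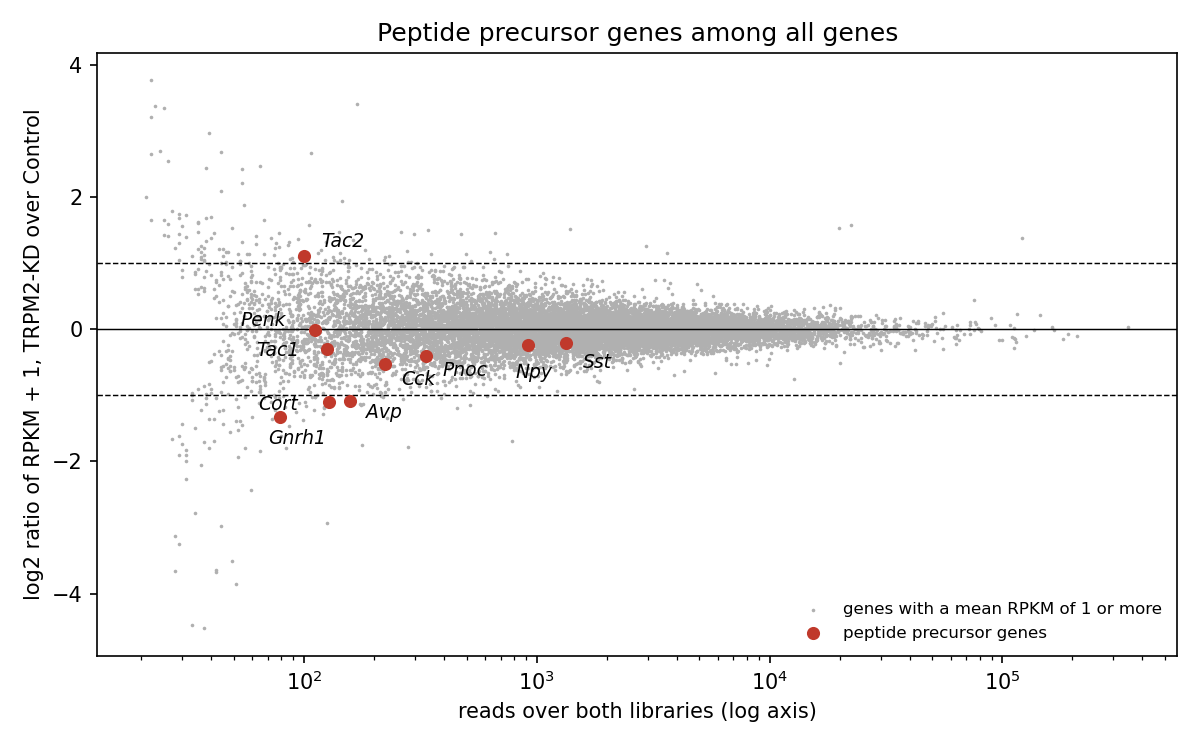
Log2 ratio of RPKM + 1, TRPM2-KD over Control, against the reads over both libraries on a log axis, for genes that reach a mean RPKM of 1 (grey) and the 10 precursor genes (red, named); dashed lines mark 2-fold. Gnrh1, Cort, Avp and Tac2 lie past the dashed lines, in the range of 79 to 157 reads where grey points also scatter past them.

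In the authors' deposited table, Gnrh1 has a log2 fold change of -1.87 with a p-value of 0.0200, and Tac2 one of 1.62 with a p-value of 0.0338. These are the 2 of the 10 genes that pass the series' own rule in the authors' deposited table, which asks for p under 0.05 with a log2 fold change past 1 either way. That rule takes 1.68% of all genes as lower and 2.16% as higher. Cort and Avp have log2 fold changes of -1.43 and -1.31 there, with p-values of 0.0557 and 0.0722. After adjustment, the authors' deposited table gives a p-value of 0.80 for Gnrh1 and 1.0 for each of the other 9. These values compare 2 libraries and not the conditions.

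Receptors for these peptides were thinly expressed, with a pair of exceptions. Of 25 receptor genes looked for, 11 were in the table and 5 reached a mean RPKM of 1. Sstr2, a somatostatin receptor also known from intermediate progenitors, was at 19.0 RPKM in TRPM2-KD and 22.4 in Control, at a ratio of 0.850 (0.779 to 0.929). Oprl1, the nociceptin receptor, was at 13.98 RPKM in TRPM2-KD and 14.3 in Control, at a ratio of 0.976 (0.901 to 1.06). The other 9 were at 2.08 RPKM or less in either library.

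Tacr3, the receptor for neurokinin B, had 41 reads in TRPM2-KD and 17 in Control, at a ratio of 3.04 (1.69 to 5.71). Its level was 0.523 RPKM in TRPM2-KD and 0.172 RPKM in Control. Tacr3 reaches a CPM of 1.01 in TRPM2-KD alone (1.97, against 0.649 in Control). A gene so listed had to differ, so nothing is read from its ratio beside that of its ligand gene Tac2. Tacr1, the receptor for substance P, was at a ratio of 0.657 with an interval from 0.388 to 1.09. Sstr1, another somatostatin receptor, had 72 reads in TRPM2-KD and 34 in Control, at a ratio of 2.67 (1.75 to 4.14), and Sstr3 was at 1.19 (0.951 to 1.49).

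The neuropeptide Y receptors went both ways. Npy1r was at a ratio of 1.52 (1.17 to 1.98), Npy2r at 0.475 (0.290 to 0.756) and Npy5r at 0.798 (0.425 to 1.47). Avpr2, a vasopressin receptor, was at 1.37, with an interval that spans 1. Oprm1, the mu opioid receptor, had 24 reads in TRPM2-KD and 15 in Control, with a ratio of 2.02 (1.02 to 4.13). Oprm1 too reaches a CPM of 1.01 in TRPM2-KD alone (1.15, against 0.572 in Control), and Npy5r does so in Control alone. Of the 11 receptors, 4 had a counting interval above 1, Tacr3 and Oprm1 among them, 2 below and 5 across it.

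Other peptide precursors showed no common direction. Of 75 such genes looked for, 21 were in the table and 16 reached a mean RPKM of 1, 9 of them with a log2 ratio above 0 and 7 below, at a median of 0.10 that turned to -0.07 without the filter. Pmch, the precursor of melanin-concentrating hormone, had 43 reads in TRPM2-KD and 14 in Control, at a ratio of 3.87 (2.08 to 7.66). Ghrl, the ghrelin precursor, had 52 reads in TRPM2-KD and 28 in Control, at 2.34 (1.45 to 3.85). Nmb, the neuromedin B precursor, had 62 reads in TRPM2-KD and 143 in Control, at 0.547 (0.399 to 0.741). Cga, the common alpha subunit of the pituitary glycoprotein hormones, was at 0.412 (0.218 to 0.736). Pmch reaches a CPM of 1.01 in TRPM2-KD alone and Cga in Control alone, so the side of 1 they lie on was set by the listing. Of the 21 genes, 4 had a counting interval above 1, 6 below and 11 across it. These counts hold genes that reach that CPM in a single library, Pmch and Cga among them.

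Gene ontology groups in the deposited annotation, with the 10 genes themselves left out, were mixed as well. Neuropeptide hormone activity had 6 genes past the filter, 3 above 0 and 3 below, with Nts, the neurotensin precursor, at a ratio of 0.493 (0.321 to 0.740). Adcyap1, the precursor of a pituitary adenylate cyclase-activating peptide, was at 1.30 (0.978 to 1.72) and Npff at 0.802 (0.575 to 1.11). B230216G23Rik, also in that group, had 43 reads in TRPM2-KD and 2 in Control, at a ratio of 27.1 with an interval from 7.06 to 231. Neuropeptide signaling pathway had 12 genes above 0 and 10 below, with Gpr139, an orphan receptor, at 4.65 (2.64 to 8.65). Gpr139 and B230216G23Rik reach a CPM of 1.01 in TRPM2-KD alone, with 0.610 and 0.0763 in Control. The side of 1 they lie on was therefore set by the listing. Hormone activity had 3 above 0 and 5 below, with Metrnl at 0.520 (0.336 to 0.789). The process terms of 992 genes, Avp and Cck among them, were not used here, so the second group is counted in part.

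The enzymes that make peptides from precursors were close to even. The table held 18 genes and 14 passed the filter, 8 above 0 and 6 below, with a median log2 ratio of 0.02, and of -0.04 at a mean RPKM of 5 or more. Cpe, the carboxypeptidase that trims precursors, was at 188 RPKM in TRPM2-KD and 170 in Control, at a ratio of 1.11 (1.08 to 1.14). Cpe was named after its value was seen. The convertase gene Pcsk2 was at 1.46 (1.27 to 1.69), and Qpct, which closes the first residue of some peptides into a ring, at 1.29, with an interval that spans 1. Pcsk1n, an inhibitor of a convertase, was at 0.687 (0.635 to 0.743), and Tpst2, which adds sulfate to tyrosines, at 0.580 (0.503 to 0.667).

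Genes of the dense core granule were lower more often than higher, with 10 below 0 and 4 above among 14, and a median of -0.11. Vgf, a secreted granule protein, had 99 reads in TRPM2-KD and 203 in Control, a ratio of 0.615 (0.478 to 0.786). Scg2, a granin, was at 0.746 (0.666 to 0.834), and Ica1 at 0.609 (0.519 to 0.714). Chga, the granin chromogranin A, was at 0.872 (0.824 to 0.922), while Baiap3 was at 1.33 (1.06 to 1.68). Chgb and Scg3, of the same family, were at 1.02 (0.959 to 1.09) and 0.973 (0.928 to 1.02), with intervals that span 1. Chga, Chgb and Scg3 were named after their values were seen. Peptidases that break peptides down had 4 of 10 above 0 and 6 below, at a median of -0.01, with Lnpep at 1.79 (1.58 to 2.02), Dpp4 at 0.372 (0.231 to 0.583), Prep at 1.17 (1.07 to 1.27) and Ecel1 at 0.853 (0.732 to 0.994).

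**Figure D5:**
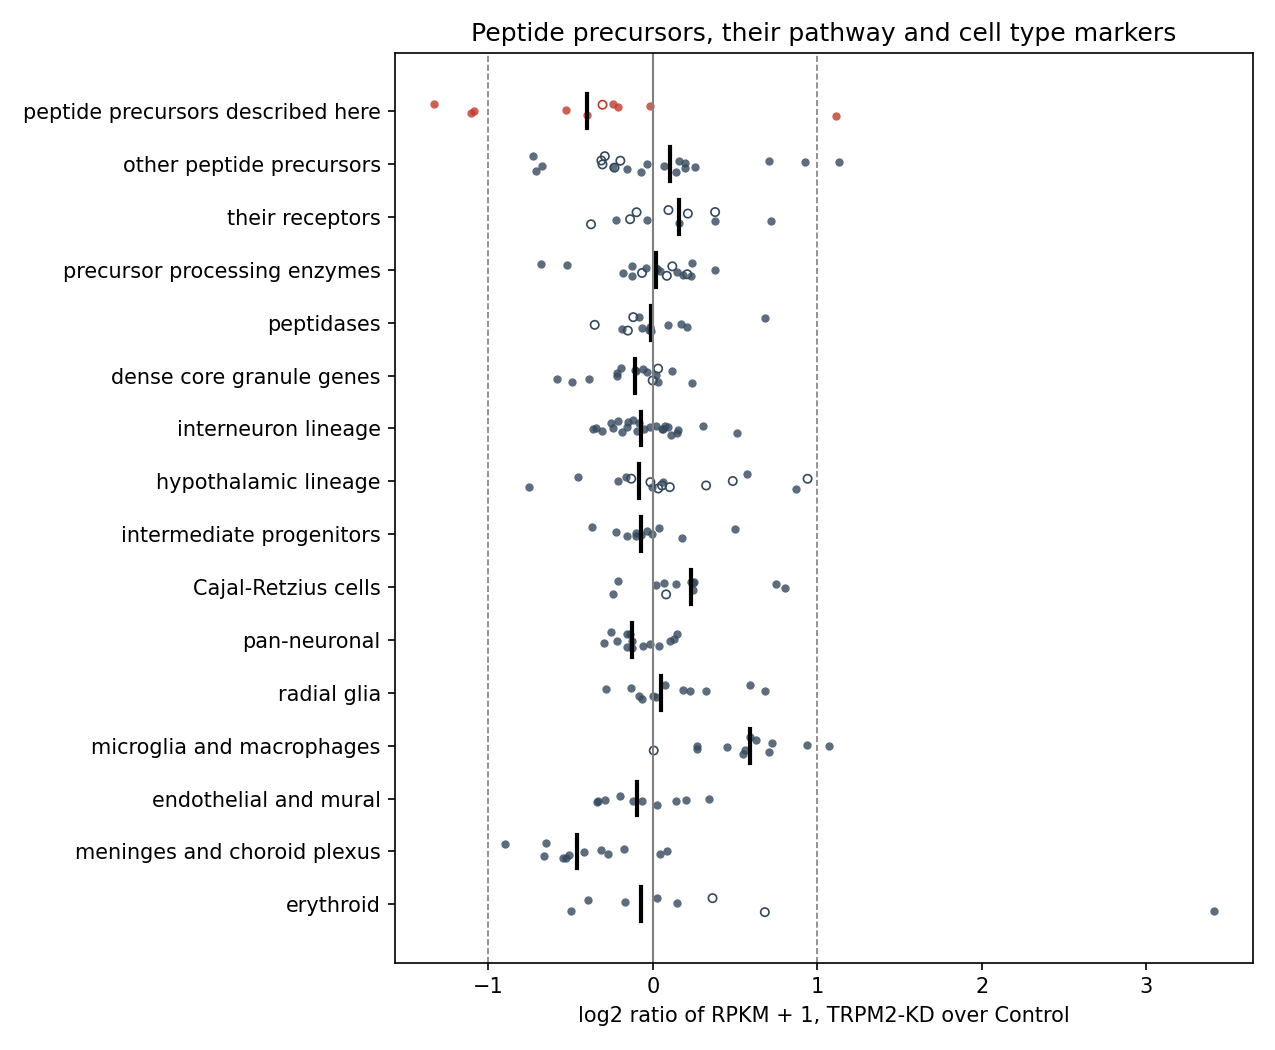
Log2 ratio of RPKM + 1, TRPM2-KD over Control, of every gene in the table from 16 lists (1 row each), with filled points for genes that reach a mean RPKM of 1, open points for those below, and a black bar at the median of the filled points. The 9 filled precursor genes (red) have a median of -0.40, markers of meninges and choroid plexus one of -0.46 and those of microglia and macrophages one of 0.59; the medians of the other lists lie between -0.13 and 0.23.

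Markers of neural cells that could hold these transcripts are given next as summed levels. A sum over many genes varies less than single genes chosen with their ratios known. Sums and ratios are therefore not weighed against each other. For the interneuron lineage, 24 of 26 markers were in the table and none was at 0 reads in either library. Their summed level was 362 RPKM in TRPM2-KD and 396 RPKM in Control, a ratio of 0.915, with 10 genes above 0 and 14 below and a median log2 ratio of -0.07. Single markers ranged from 1.81 to 57.3 RPKM in TRPM2-KD and from 0.973 to 62.5 RPKM in Control. By the naming rule, which takes the furthest ratios, Nr2f2 and Dlx2, transcription factors of ventral forebrain cells, were at 0.780 and 0.80. Gsx2, a factor of the progenitors of such cells, was at 1.86 (1.26 to 2.77). Nearer 1 were Gad1 at 1.08 (1.03 to 1.13), Gad2 at 1.045 (0.992 to 1.10) and Slc32a1 at 0.987 (0.897 to 1.09). Gad1, Gad2 and Slc32a1 were named after their values were seen. The summed ratio of the interneuron markers carries no interval and is not set against the ratios of the peptide genes.

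Hypothalamic markers, relevant to Avp, had 16 of 17 genes in the table, summing to 76.9 RPKM in TRPM2-KD and 79.4 RPKM in Control. Arnt2, named after its value was seen, made up 44.1 RPKM of that sum in TRPM2-KD and 51.3 in Control. No list was written for the neurons that make gonadotropin-releasing hormone. Of 8 hypothalamic markers past the filter 3 were above 0 and 5 below, at a median of -0.08, and of 0.04 without the filter. Otp and Sim1, factors that the neurons making vasopressin need, were at 1.54 and 0.189 RPKM in TRPM2-KD and at 1.43 and 0.202 RPKM in Control. Their counting intervals spanned 1. Both were named after their values were seen. By the naming rule, Hmx3, with 37 reads in TRPM2-KD and 6 in Control, was at 7.77 (3.25 to 22.5), Barhl1 at 2.16 (1.85 to 2.52), Lhx9 at 1.60 (1.46 to 1.77) and Fezf1 at 0.355 (0.227 to 0.540). Hmx3 reaches a CPM of 1.01 in TRPM2-KD alone (1.78, against 0.229 in Control), so it had to be higher there to be listed.

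Markers of intermediate progenitors summed to 336 RPKM in TRPM2-KD and 347 RPKM in Control, with 3 of 11 above 0 and a median of -0.07. Nhlh1 was at 1.46 (1.31 to 1.62) and Neurog1 at 0.660 (0.449 to 0.957). Cajal-Retzius markers summed to 81.1 RPKM in TRPM2-KD and 69.1 RPKM in Control, with 9 of 11 above 0, a median of 0.23, Ndnf at 2.52 (2.01 to 3.17) and Ebf3 at 1.81 (1.64 to 2.0). Pan-neuronal markers summed to 1771 RPKM in TRPM2-KD and 1954 RPKM in Control, with 10 of 14 below 0 and a median of -0.13, and radial glia markers to 678 RPKM in TRPM2-KD and 623 RPKM in Control, with 8 of 12 above 0 and a median of 0.05. The part of any of these cell types in the ratios of the peptide genes was not tested.

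Summed markers of microglia, meninges, choroid plexus, blood vessels and red blood cells differed between the libraries as well. Microglia and macrophage markers summed to 255 RPKM in TRPM2-KD and 165 RPKM in Control, with 11 of 11 above 0 and a median of 0.59. Meningeal and choroid plexus markers summed to 358 RPKM in TRPM2-KD and 502 RPKM in Control, with 10 of 12 below 0 and a median of -0.46, below that of the 9 precursor genes. Ttr, a choroid plexus marker named after its value was seen, made up 283 RPKM of that sum in TRPM2-KD and 403 in Control. Blood vessel markers summed to 141 RPKM in TRPM2-KD and 158 RPKM in Control, with 6 of 10 below 0 and a median of -0.09. Erythroid markers summed to 88.5 RPKM in TRPM2-KD and 73.7 RPKM in Control, with 3 of 6 on each side and a median of -0.07, which was 0.08 without the filter. No marker of these lists was at 0 reads in either library, and their part in the ratios of the peptide genes was not tested either.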

How the data were processed

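RNA-seq was done on 1 TRPM2-KD and 1 Control library of GFP-positive cortical cells. The authors deposited, per the file headers, whole read counts and RPKM per gene for each library, with their own log2 fold change and p-value for each gene. The sources used here do not name their tool or the spread it assumed without replicates. The submitters' processing notes name HTSeq 0.6.0, TopHat2 2.0.12, Bowtie2 2.2.3 and the build mm9, with no role. They do not state strand, read length or the handling of multi-mapping reads.

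Ratios were computed as TRPM2-KD over Control from RPKM, which scales by gene length and library total, and their intervals are exact conditional binomial (Clopper-Pearson) 95% intervals of the counts. Level intervals are exact Poisson intervals. PCR copies are not independent molecules, so both cover counting error only. With 1 library per group no test of the conditions was possible and no p-value was computed. Fold counts used log2(RPKM + 1) among genes that reach a mean RPKM of 1. Scaling alternatives used edgeR 4.0.16 (TMM) and DESeq2 1.42.0 (size factors), and scipy 1.17.1 gave the intervals, which were checked on simulated data.

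The 10 genes and the 15 gene lists were chosen with earlier results of these data known. The naming rule took all 10 genes, every receptor in the table and, per list or gene ontology group, up to 4 genes with 20 or more reads and the largest absolute log2 ratio; not every gene it takes is printed. No genes of like pattern are named, since 2 libraries give 1 ratio per gene. Promoters are from RefSeq (GRCm38.p6), found for 7 of the 10 genes; coding sequences are from GENCODE M21, with the longest coding sequence per gene aligned by Biopython 1.88 without gaps. The value of 1 marker gene is not reported here.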

Additional observations from a re-analysis of the deposited data

How the results depend on the processing

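The ratio of each of the 10 genes stayed within its own counting interval with edgeR TMM factors, DESeq2 size factors, library totals without mitochondrial and the 50 most abundant genes, a pseudocount of 1 RPKM and the authors' log2 fold change, 50 values in all. The edgeR and DESeq2 factors multiply every ratio by only 1.0005 and 1.0012. Sst, at 0.8615, was at 0.8624 with the reduced totals and at 0.862 by the authors' fold change. Apart from the pseudocount, these settings could hardly move a ratio. With pseudocounts of 0.1 and 0.5, with no expression filter, at 1.5-fold and with the other scalings, 3 genes were counted as lower and 1 as higher. With a mean RPKM of 5 or more, 4 of the 10 genes were left, 1 lower (Avp) and 0 higher, since the filter leaves fewer genes. The number of genes in the whole table that were at least 2-fold lower and higher was 96 and 128, against 209 and 296 with a pseudocount of 0.1, 142 and 198 with one of 0.5, 38 and 49 at a minimum mean RPKM of 5, and 395 and 496 at 1.5-fold. The median of the gene ontology group hormone activity without the 10 genes was -0.29, and 0.14 with a mean RPKM of 5 or more, where fewer genes are tested. Of 124 medians of lists under alternatives, 12 had the other sign, in 8 of the 22 lists: 6 with a mean RPKM of 5 or more, 4 with no filter and 1 each with the edgeR and DESeq2 factors. The 2 under the factors are of the gene ontology group neuropeptide signaling pathway, whose median is close to 0. At that minimum of 5 the median was -0.13 for the receptors, against 0.16, and -0.05 for the other peptide precursors, against 0.10. The median of those of the 10 genes past each filter stayed below 0, between -0.51 and -0.35. Leaving out genes that stand in another list was chosen after seeing the data, as were the shares within ranges of reads and length. No paired analysis was possible because each group has 1 library, and for the same reason no library could be left out. Depth limits Gnrh1, Tac2, Penk, Tac1, Cort and Avp most, with 79 to 157 reads over both libraries.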
